A study of Pseudochlorella pringsheimii with 2 samples.

Results

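The fatty acid synthase and elongation contigs described here are 5 of the 13566 contigs with deposited counts from *Chlorella ellipsoidea*. They were taken by their contig numbers. Contigs 88508, 76421 and 86271 are named as fatty acid synthase in the study, 83574 as protein 4 of the ELO type, which elongates very long chain fatty acids, and 86121 as very-long-chain 3-ketoacyl-CoA synthase. All 5 were chosen by the authors from their log2 ratio between the same libraries that are described here, at more than 2-fold in either direction, so those ratios are given as descriptions and no test was applied to them.

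*C. ellipsoidea* is a unicellular green alga. The samples are strain Dof4-1, which carries the soybean gene GmDof4 for a transcription factor of the Dof family under a Ubiquitin promoter, and line CK-1 (CK), which was transformed with pCK, the vector without that cassette. Both derive from strain IGDB-1, carry the *npt*II marker selected with G418, and were grown mixotrophically in Endo medium without antibiotic for 120 hours at 25°C under 100 μmol photons/m2/s. Each strain is 1 transformed line, and 3 cultures of it were mixed before RNA isolation. There is thus 1 library per strain, the deposited counts give the ratios no replicate check, and an effect of GmDof4 cannot be told apart from other differences between the transformed lines. These contigs were also measured by qRT-PCR, in the sequenced GmDof4 strain and in further transgenic strains, which was not analysed here. The paper reports that most of the measured transcripts followed the sequencing, with more variation among the transgenic strains. By its counts this held in the sequenced strain and in 1 further strain, while in another only a minority followed. In total 14589660 reads were counted for GmDof4 and 14823559 for CK. The files hold contig numbers without gene names or sequences, and the study names few contigs, so the cells were not checked against marker genes.

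Fatty acid synthase makes the saturated chain of a fatty acid by adding units from malonyl-CoA, which acetyl-CoA carboxylase (ACCase) supplies. In plants and green algae the reactions in the plastid are carried out by separate proteins, whereas in animals a single large protein holds all activities. Longer chains are then built at the endoplasmic reticulum, where a condensing enzyme joins a fatty acyl-CoA to malonyl-CoA as the opening step of each round. Both elongation contigs were named for such condensing enzymes. The 3-ketoacyl-CoA synthases are the family best known from plants, in which they feed wax and seed oil synthesis, and the ELO family to which protein 4 belongs is best known from animals and yeast.

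With GmDof4, 4 of the 5 contigs were higher and 1 was lower at more than 2-fold in reads relative to the counted reads of the library (RPM). Among all 13565 contigs with reads, 5.74% were past 2-fold higher and 2.4% past 2-fold lower, which together is 8.13%. Nothing is read from the count of the 5, since the ratio chose them. The ratios were unequal. The log2 ratio of 83574 was 2.95, those of 88508, 86121 and 76421 lay between 1.07 and 1.21, and that of 86271 was -1.02. In RNA of a whole culture, more transcript per cell and more cells with the transcript cannot be told apart.

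**Figure D1:**
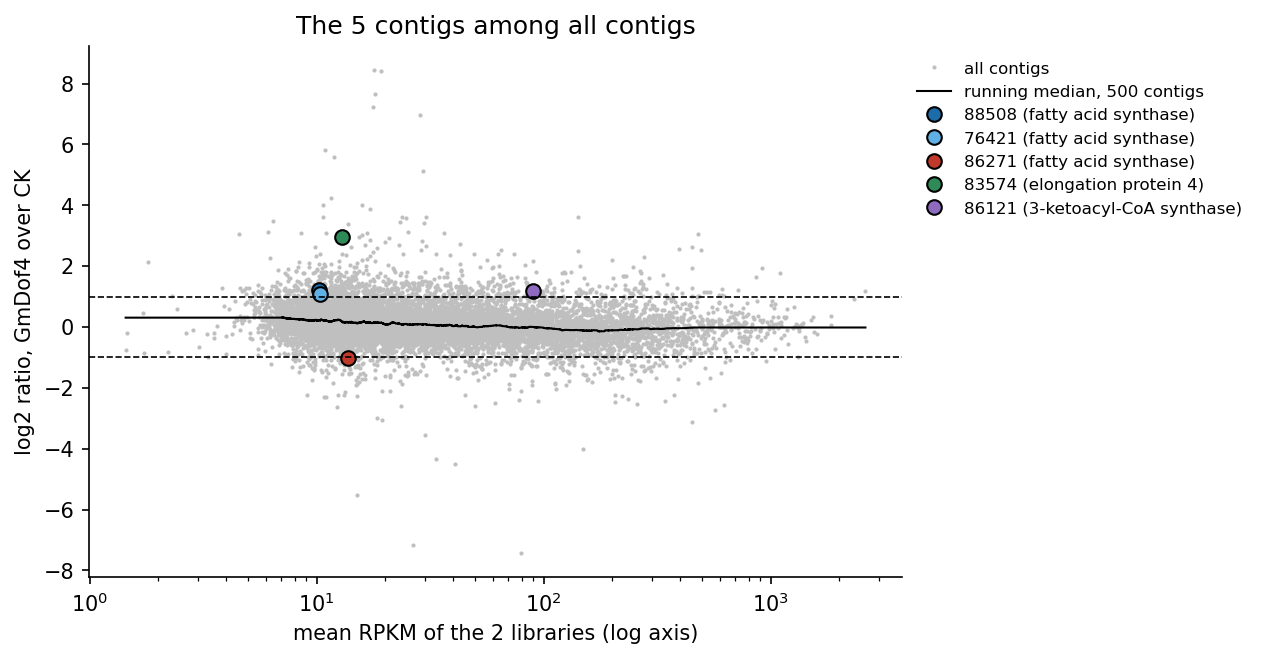
The log2 ratio of GmDof4 over CK is plotted against the mean RPKM of the 2 libraries (log axis). Grey points are all contigs with reads, the black line is the running median of 500 contigs of like level, dashed lines mark 2-fold, and coloured points are the 5 contigs. Contig 83574 lies far above the bulk at a log2 ratio of 2.95, while 88508, 76421 and 86271 lie close to the dashed lines in the broad, low-level part of the plot.

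The fatty acid synthase contigs 88508 and 76421 were named after the same protein, and their values were alike in both libraries. Contig 88508, of 658 bp, had 60 reads in CK and 137 in GmDof4, or 6.15 and 14.3 RPKM, in which the RPM are divided by the contig length in kb. Contig 76421, of 423 bp, had 42 reads in CK and 87 in GmDof4, or 6.70 and 14.1 RPKM. Both were low in CK, where 3.32% and 4.37% of all contigs had a smaller RPKM, and in GmDof4 they stood above 24.8% and 24.1% of contigs. The ratio was 2.32-fold for 88508 (95% interval 1.70 to 3.20) and 2.10-fold for 76421 (1.44 to 3.12). These intervals are exact Clopper-Pearson intervals from the reads and cover counting error only.

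The per-length level of 88508 over that of 76421 within a library was not used to choose either contig. It was 1.01 in GmDof4 (95% interval 0.768 to 1.34) and 0.918 in CK (0.609 to 1.40), so that counting error did not separate the per-length levels in either library. These wide intervals do not show that the levels are equal. The log2 ratios of 88508 and 76421 differed by 0.14, with an exact conditional interval of -0.59 to 0.87. Both contigs were chosen as higher at more than 2-fold, so nothing is read from that small difference. By comparison, the pair of Rft-1-domain-containing protein contigs, also named after one protein, had a per-length level of 91381 over 78075 of 0.832 in GmDof4 (0.729 to 0.951) and 0.757 in CK (0.604 to 0.948). That interval lies below 1 in both libraries, with more reads than 88508 and 76421 have. The values of 0.832 and 0.757 lie inside the intervals of 88508 over 76421, so the pairs were not shown to differ. Whether 88508 and 76421 come from one transcript was not tested, since no contig sequences were used. In the files the name of 88508 ends in R and that of each other contig of the 5 in U, a mark that the sources used here do not explain, and whether it bears on the reads counted for 88508 was not tested.

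Contig 86271, of 617 bp, went the other way. It had 169 reads in CK and 82 in GmDof4, or 18.5 and 9.11 RPKM, a level 2.03-fold lower in GmDof4 (95% interval 1.55 to 2.67). In CK it stood above 42.2% of all contigs, and in GmDof4 above 6.59%. Its log2 ratio of -1.02 is the closest to the 2-fold limit among the 5. The ACCase contig 56174 is the one named contig of lipid metabolism within 2-fold, at a log2 ratio of 0.41. The name of 86271 rests on the weakest sequence match of the 5 in the study, and it was named after another protein than 88508 and 76421. Its log2 ratio was 2.23 lower than that of 88508, with an exact conditional interval of the difference of 1.63 to 2.84. A large difference was fixed in advance, since 88508 was chosen as higher and 86271 as lower, so nothing is read from that interval.

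**Figure D2:**
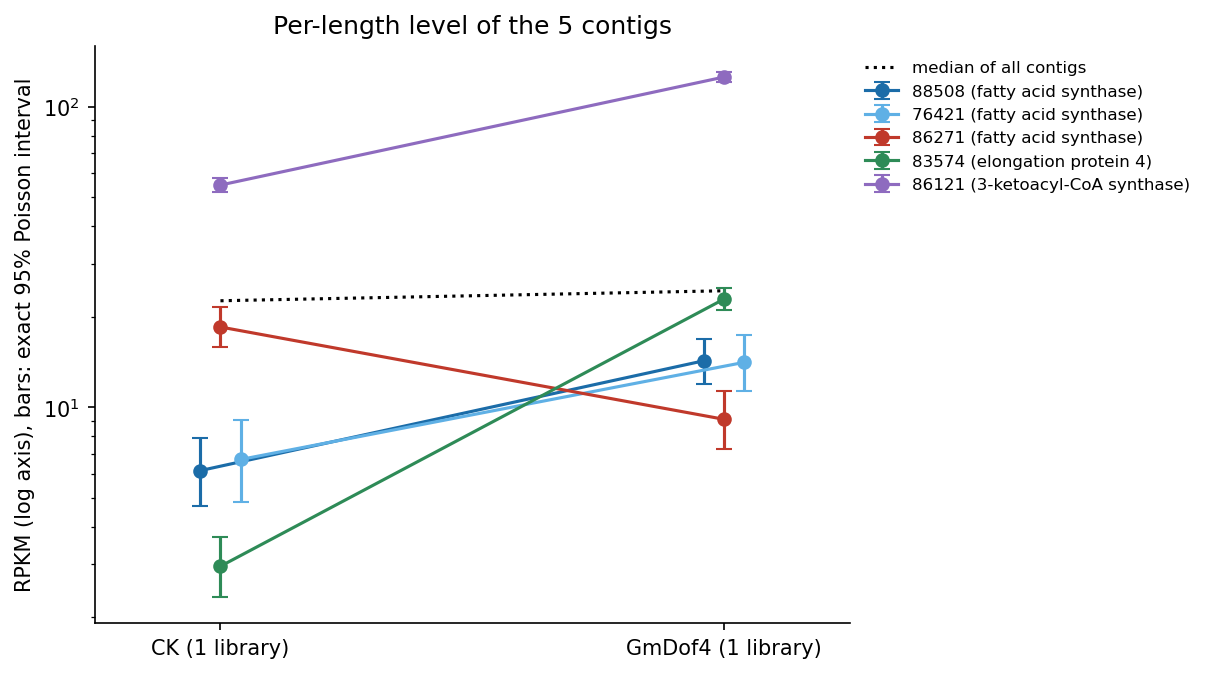
RPKM (log axis) of the 5 contigs in the CK and the GmDof4 library, with exact 95% Poisson intervals as bars and the median of all contigs as a dotted line. The lines of 83574, 88508 and 76421 cross that of 86271, which was 18.5 RPKM in CK and 9.11 in GmDof4, and contigs 88508 and 76421 overlap in both libraries.

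Summed over the 3 fatty acid synthase contigs, the reads were 271 in CK and 306 in GmDof4, or 18.3 and 21.0 RPM. The log2 ratio of the sum was 0.20, with a 95% interval of -0.04 to 0.44 that includes 0. This value depends on counting 86271, with its weak sequence match, as fatty acid synthase. Without it, 88508 and 76421 together had 102 reads in CK and 224 in GmDof4, a log2 ratio of 1.16 (0.81 to 1.51). The gain of 77 reads on 88508 and 45 on 76421 stood beside the loss of 87 on 86271. As fatty acid synthase the study names only contigs chosen at more than 2-fold. Any others could not be found by name and are not in the sum, so it does not give the total for the enzyme. The make-up of this sum of chosen contigs differed more than its size. Contig 86271 held 62.4% of the reads in CK (95% exact binomial interval 56.3 to 68.2) and 26.8% in GmDof4 (21.9 to 32.1), and these intervals do not overlap. Contig 88508 held 22.1% (17.3 to 27.6) and 44.8% (39.1 to 50.5). Corrected for contig length, the share of 86271 in the summed RPKM was 59.0% in CK and 24.3% in GmDof4. Its per-length level was 3.0 times that of 88508 in CK (2.23 to 4.10) and 0.638 times in GmDof4 (0.479 to 0.845). Such shares within a library do not depend on how the libraries are scaled to each other, although they still follow from the ratios that chose the contigs.

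**Figure D3:**
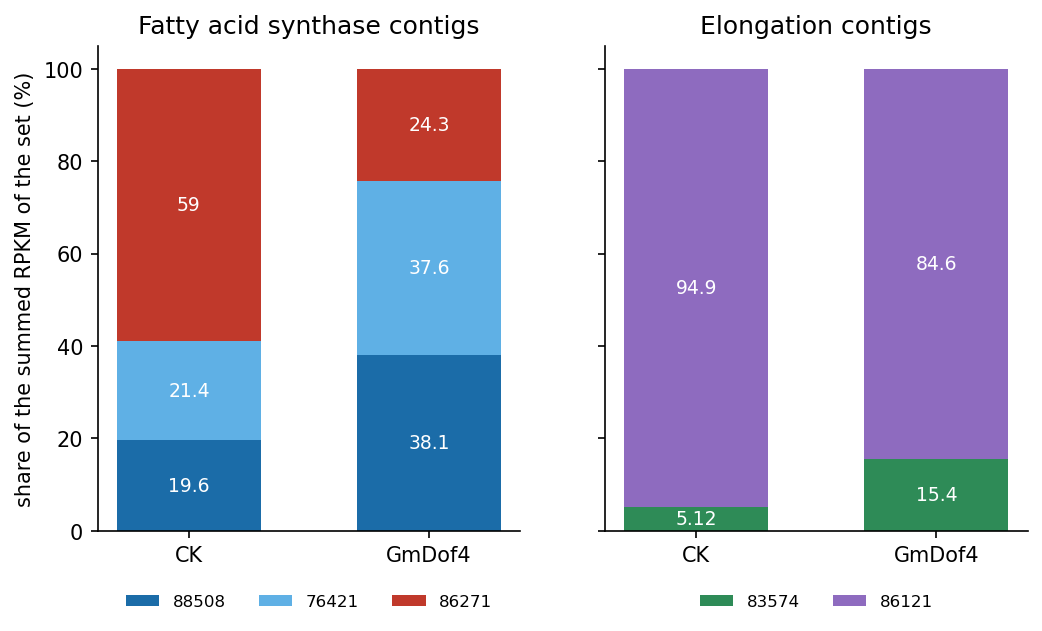
Share of each contig in the summed RPKM of the fatty acid synthase contigs (left) and of the elongation contigs (right), in percent, for CK and GmDof4. Contig 86271 makes up 59.0% of the bar in CK and 24.3% in GmDof4, and 83574 makes up 5.12% and 15.4% of the elongation bars.

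The elongation contig 83574 had the largest ratio of the 5. It is 1757 bp long and had 77 reads in CK and 587 in GmDof4, or 2.96 and 22.9 RPKM. In CK it was among the contigs with the lowest levels, with 0.287% of all contigs below it. In GmDof4 it was near the median contig, with 47.1% below it and 0.939 times the median RPKM. The ratio was 7.75-fold (95% interval 6.10 to 9.96), place 34 from the top among all contigs with reads. Within 0.1 of its log2 ratio lay 8 contigs, itself included. Of the contigs named in the study outside the 5, the one nearest to it in log2 ratio was 86913, named as tousled-like kinase 1, at 2.96.

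The 3-ketoacyl-CoA synthase contig 86121, of 1535 bp, was the most abundant of the 5 in both libraries. It had 1247 reads in CK and 2808 in GmDof4, or 54.8 and 125 RPKM, which was above 74.5% and 88.6% of all contigs. Its ratio of 2.29-fold has the narrowest 95% interval of the 5, 2.14 to 2.45. In absolute terms it gained 1561 reads, against 510 for 83574. Its log2 ratio was 1.76 lower than that of 83574, with an exact conditional interval of the difference of 1.40 to 2.13, and it differed from that of 88508 by 0.02 (-0.44 to 0.49 for 88508 minus 86121). Since 88508 and 86121 were both chosen as higher at more than 2-fold, nothing is read from that small difference. The named contig nearest to 86121 was 59360, named as the biotin carboxylase subunit of ACCase, at a log2 ratio of 1.12.

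Together the elongation contigs had 1324 reads in CK and 3395 in GmDof4, a log2 ratio of 1.38 (95% interval 1.29 to 1.47). This sum too covers only contigs chosen at more than 2-fold. It follows 86121, which held 94.2% of the reads in CK and 82.7% in GmDof4. The per-length level of 86121 was 18.5 times that of 83574 in CK (14.7 to 23.6) and 5.48 times in GmDof4 (5.01 to 6.00). Against 88508 it was 8.91 times in CK (6.87 to 11.7) and 8.79 times in GmDof4 (7.40 to 10.5), which overlap. Both contigs were chosen as higher at more than 2-fold, which favours such a likeness, so nothing is read from the overlap. Of the summed reads of all 5, contig 86121 held 78.2% of the reads in CK and 75.9% in GmDof4.

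By RPKM the order in CK was 86121, 86271, 76421, 88508 and 83574, and in GmDof4 it was 86121, 83574, 88508, 76421 and 86271. In CK the exact 95% Poisson intervals overlapped only for the neighbours 76421 (4.83 to 9.05 RPKM) and 88508 (4.69 to 7.92). In GmDof4 they overlapped for 88508 (12.0 to 16.9) and 76421 (11.3 to 17.4), and that of 76421 just touched that of 86271 (7.24 to 11.3). Contig 83574 was thus the lowest of the 5 in CK and in the second place in GmDof4, and 86271 was in the second place in CK and the lowest in GmDof4.

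The 95% interval of the ratio lay wholly past 2-fold for 83574 and 86121. This was so for 2.93% of all contigs on the higher side and 1.5% on the lower side. Since 83574 and 86121 were chosen by that same ratio, nothing is read from the contrast with all contigs. For 88508, 76421 and 86271 the interval reached within 2-fold. The typical ratio differed with the level of the contig. Among the 500 contigs of like mean RPKM the median log2 ratio was 0.22 around 88508 and around 76421, 0.15 around 86271, 0.18 around 83574 and 0.00027 around 86121, against 0.09 over all contigs. Past 2-fold higher were 8.2% of the contigs around 88508, 9.0% around 76421, 7.4% around 83574 and 4.2% around 86121, and past 2-fold lower were 2.6% around 86271. Relative to these medians, the log2 ratio was 0.997 for 88508 and 0.852 for 76421, both within 2-fold, -1.17 for 86271, 2.77 for 83574 and 1.19 for 86121.

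**Figure D4:**
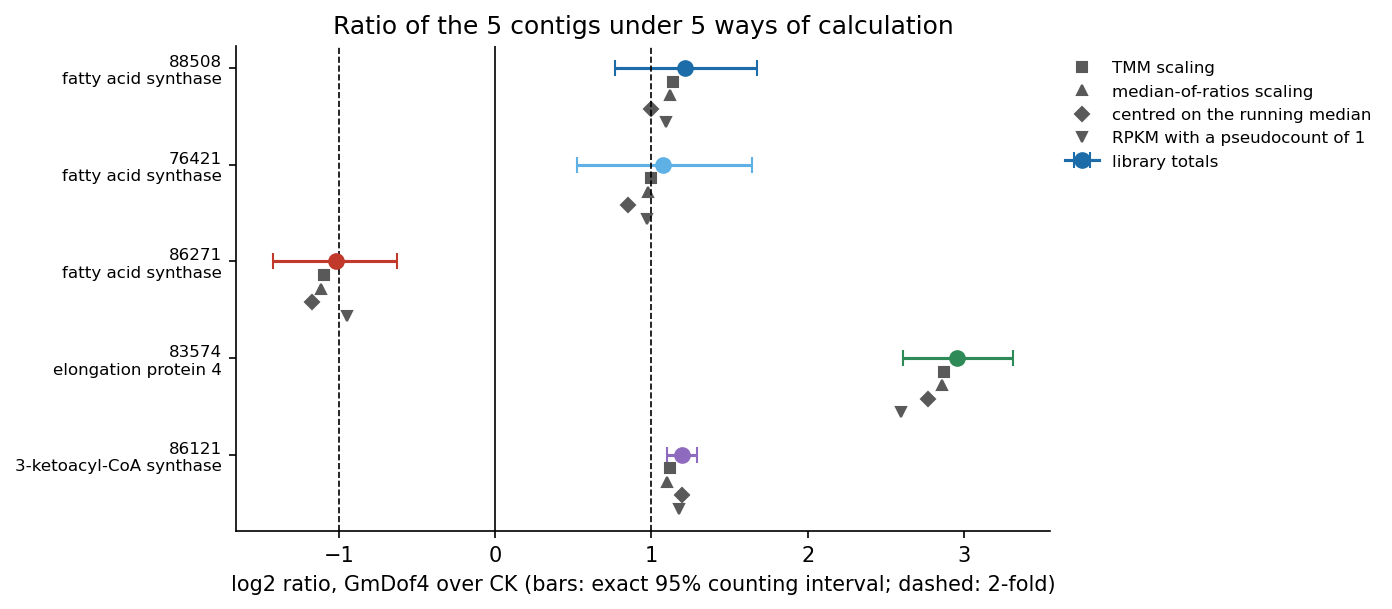
Log2 ratio of GmDof4 over CK for the 5 contigs. Coloured points with bars are the ratios by library totals with exact 95% counting intervals, grey symbols the ratios under TMM scaling, median-of-ratios scaling, centring on the running median and a pseudocount of 1 RPKM, and dashed lines 2-fold. Contigs 83574 and 86121 stay past 2-fold under each calculation plotted, 76421 lies within 2-fold under each of the grey symbols, 88508 does so after centring, at 0.997, and 86271 with the pseudocount.

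Among other contigs of lipid metabolism named in the study, 7 of the 8 ACCase contigs were past 2-fold higher and 0 past 2-fold lower. Their median log2 ratio was 7.09, against 0.09 over all contigs and 1.19 for the 5 contigs. Contig 56174, the exception, was the one ACCase contig that was not chosen by its ratio. Contigs 56171, 80365, 101511, 71421, 67502 and 91597 had only 1, 1, 0, 2, 2 and 8 reads in CK, so their ratios are imprecise. The log2 ratio of 56171, for example, had an exact interval of 5.95 to 13.7. These contigs were all named after the same protein, and whether they come from the same transcript was not tested. Nothing is read from the count of ACCase contigs past 2-fold, since the ratio chose all but 56174. The remaining 10 lipid contigs had 9 past 2-fold higher and 1 lower, with a median log2 ratio of 1.48, and they too were chosen by their ratio. The lower one was the phospholipase D alpha 2 contig 59485, named for an enzyme that cleaves membrane phospholipids, at a log2 ratio of -1.65. It was the named contig nearest to 86271, at a distance of 0.632. Nearest to 88508 was the phospholipase/carboxylesterase contig 88610, at 1.28, and nearest to 76421 the phosphatidylglycerol transferase contig 83046, at 1.11. In CK the 5 contigs ranged from 2.96 to 54.8 RPKM, the other 10 lipid contigs from 5.11 to 82.8, and the ACCase contigs from 0 to 152.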

How the data were processed

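Libraries of poly(A) RNA from GmDof4 and CK were sequenced by the authors as single-end reads, assembled with those of a further transgenic library by SOAPdenovo, and mapped with BWA to contigs of at least 300 bp. The sources used here give neither tool versions nor the treatment of reads that match more than 1 contig. The deposited counts are whole reads per contig without normalization. The deposited RPKM were made by the authors from these counts, the contig length and the library total, and were reproduced within 5.23e-12.

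Samples were grouped by their titles, and contig names were taken from the paper. Log2 ratios of RPM were calculated in Python 3.11.15 with scipy 1.17.1 without a filter or pseudocount. A count of 0 was set to 3 reads, 0.206 RPM in GmDof4 and 0.202 in CK. This touches ACCase contig 101511 in CK, whose ratio enters the ACCase median as a lower bound. Intervals are exact at 95%. PCR reads carry no molecular identifiers, so intervals cover counting error only. With 1 library per strain no p-value is given. Intervals were tested on simulated counts that held counting error alone, which says nothing about other sources of spread. Alternatives were TMM scaling (edgeR 4.0.16), median-of-ratios scaling (DESeq2 1.42.0), totals less the 10 most abundant contigs, no scaling, centring on the running median, pseudocounts of 1 and 0.1 RPKM, read and length minimums, an adjusted p below 0.001 in addition, assumed coefficients of variation, and contig length less the read length of 80 plus 1. The contigs and lists were chosen with earlier results of these data known. Named are the 5, contigs of the ACCase and other lipid lists, and the paper's contig nearest to each of the 5 in log2 ratio. Contig sequences, the further library and the other parts of the contig names in the files were not used here.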

Additional observations from a re-analysis of the deposited data

How the results depend on the processing

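The direction of all 5 contigs was kept under the 7 other calculations of the ratio, which was fixed in advance. The largest shift by a scaling was -0.094 and the largest running median around the 5 was 0.22. The log2 ratio closest to 0 was -1.02, and a pseudocount cannot change a direction. Past 2-fold were 3 of the 5 after centring on the running median (without 88508 and 76421) and 3 with a pseudocount of 1 RPKM (without 76421 and 86271), which also lowered the log2 ratio of 83574 to 2.59. Under TMM and median-of-ratios scaling 4 of the 5 were past 2-fold, without 76421, at log2 ratios of 0.996 and 0.980. Median-of-ratios scaling gave 1.29 for the summed elongation contigs, and 617 contigs past 2-fold higher and 408 lower in place of 778 and 325. Over all contigs, 1103 were past 2-fold, and 601 with the whole interval past 2-fold. Among the contigs of at least 500 bp, a smaller set that leaves out 76421, 687 were past 2-fold. If a coefficient of variation between libraries of 0.4 is assumed, the 95% interval stays on one side of 0 for 1 of the 5, contig 83574 (1.32 to 4.59). At assumed values of 0.1 and 0.2 it does so for all 5. The ratios chose the contigs, and 1 library per strain gives no estimate of the coefficient. None of these settings therefore says that a ratio is stable. With the length less the read length plus 1, contigs 88508 and 76421 changed places in GmDof4, so that 3 of the 5 kept their place. The sum of the fatty acid synthase contigs had a log2 ratio from 0.10 to 0.20 under the 4 other scalings. No paired analysis was possible because the labels give no replicate numbers and there is 1 library per strain. The depth limits 88508, 76421 and 86271, with 129 to 251 reads over both libraries, more than it limits 86121, with 4055. For 83574 the level in CK rests on 77 reads.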
